A study of Homo sapiens with 12 samples.

Results

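Linker histones, the H1 family, bind the nucleosome where DNA enters and leaves it and help to fold chromatin. The genes H1F0, H1FX, HIST1H1A, HIST1H1B, HIST1H1C, HIST1H1D and HIST1H1E were chosen by symbol from the deposited table as the somatic members of this family, 7 of 25146 genes in all. They fall into a replication-independent pair, H1F0 (histone H1.0) and H1FX (H1.X), and the replication-dependent genes of the histone cluster on chromosome 6, named HIST1H1A to HIST1H1E in these files. In RefSeq the pair lie on chromosomes 22 and 3.

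Background on these genes helps to read their values. Replication-dependent histone genes are transcribed mostly in S phase, and most of their mRNA ends in a stem-loop in place of a poly(A) tail, whereas H1F0 and H1FX give polyadenylated mRNA throughout the cycle. H1F0 is known to accumulate in cells that stop dividing, and it is a classic gene raised by inhibitors of histone deacetylases, enzymes that remove acetyl groups from histones. Libraries were made with a TruSeq RNA kit that does not mark strand and is commonly used with poly(A) selection, but the labels do not state the selection, so levels of replication-dependent genes may under-represent their total mRNA.

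RNA-seq was compared between Molt-4 and Jurkat, human lines established from T-cell acute lymphoblastic leukaemia, in 4 groups of 3 libraries: Molt-4 with chidamide, Molt-4 untreated, Jurkat with chidamide and Jurkat untreated. Chidamide, a benzamide inhibitor of class I histone deacetylases and HDAC10, was given at 2 µM. The protocol gives 48 h, while labels of treated replicates 1, 2 and 3 read 48, 49 and 50 h, and all groups shared the RPMI medium with serum. Nothing in the labels says whether replicates were grown separately, so p-values measure only the spread between libraries, which may be technical.

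Values were FPKM, fragments scaled to gene length and library size, and levels of different genes are set side by side on that scale. The scaling does not correct for mRNA that library selection may capture less, such as that of replication-dependent genes. No read counts were recovered and depth is unknown. Library totals ran from 698435 to 869059 FPKM, with 11643 to 13228 genes at 1 FPKM or more. Replicate 3 of untreated Jurkat was unlike its group: log2 ratios between it and replicates 1 and 2 had SDs of 0.371 and 0.378 over genes, against 0.248 to 0.28 for every other pair within a group. The 10 T-lineage markers averaged at least 1 FPKM in each group. They summed to between 1019 and 1036 FPKM in treated and 1104 and 1169 in untreated Molt-4, and to between 1599 and 1665 in treated and 2412 and 2492 in untreated Jurkat. The libraries labelled Molt-4 also held erythroid markers, with a sum over 5 genes of 2219 to 2267 FPKM with chidamide and 1432 to 1539 untreated, against 3.47 to 42.9 in treated Jurkat and 0.35 to 1.29 in untreated Jurkat. Alpha-globin HBA1 alone averaged 2072 ± 22.1 FPKM in treated and 1472 ± 54.5 in untreated Molt-4. Myeloid markers (6 genes) summed to between 89.0 and 89.9 FPKM in treated Molt-4, 11.3 and 11.99 in untreated Molt-4, 1.51 and 4.66 in treated Jurkat, and 0.21 and 1.12 in untreated Jurkat. Epithelial and stromal markers (6 genes) summed to between 241 and 253 FPKM in treated Molt-4, 81.1 and 87.2 in untreated Molt-4, 37.5 and 47.7 in treated Jurkat, and 0.94 and 2.11 in untreated Jurkat. B-lineage markers (5 genes) summed to between 6.8 and 9.11 FPKM in treated and 1.47 and 3 in untreated Molt-4. In Jurkat they summed to between 5 and 7.1 FPKM with chidamide and 10.8 and 14.3 without. MS4A1 was at 0 in 3 of the 4 groups. Whether the cultures were the named lines was not verified, and the part of any of these markers in any result below was not tested.

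By FPKM, the recorded H1 transcripts were mostly HIST1H1C in Molt-4 and mostly H1FX in Jurkat. Whether the libraries were poly(A) selected is not stated. If they were, HIST1H1 mRNA without a tail is under-represented, and the shares below may not be those of total H1 mRNA. HIST1H1C, which encodes the abundant somatic histone H1.2, held 77.0 ± 0.195% of the summed FPKM of the 7 genes in treated and 66.4 ± 1.29% in untreated Molt-4 (SD, n = 3 each). Its share was 2.12 ± 0.232% in treated and 0.949 ± 0.259% in untreated Jurkat. H1FX held 18.5 ± 0.248% and 30.7 ± 1.28% in treated and untreated Molt-4, against 73.8 ± 1.09% and 86.5 ± 1.28% in treated and untreated Jurkat. The share of H1F0 was 3.56 ± 0.171% in treated and 1.38 ± 0.160% in untreated Molt-4, and 23.9 ± 1.09% in treated and 11.8 ± 1.59% in untreated Jurkat. The summed level of the 7 genes was 849 ± 27.9 FPKM in treated and 383 ± 4.88 in untreated Molt-4, and 690.5 ± 26.3 in treated and 322 ± 103 in untreated Jurkat. The treated sums lay above the untreated ones in both lines. In bulk RNA a change per cell and a change in the mix of cells cannot be told apart.

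**Figure D1:**
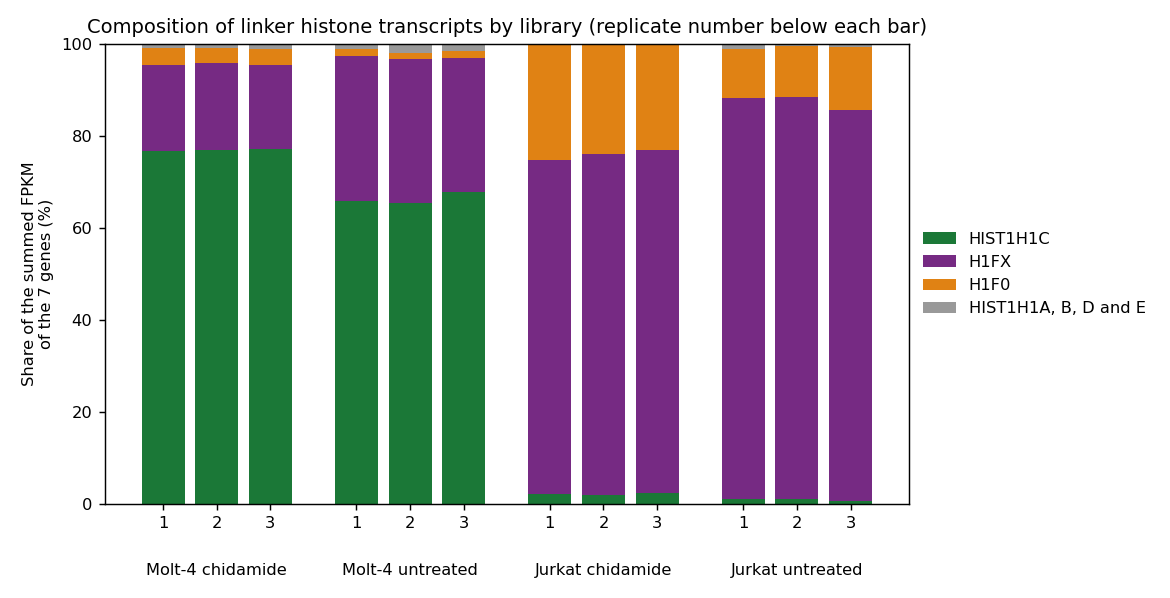
Share of the summed FPKM of the 7 linker histone genes (%, y axis) held by each gene in each library (x axis, replicates 1 to 3 in 4 groups). Green HIST1H1C fills 65.4% to 77.2% of the Molt-4 bars, and purple H1FX fills 72.5% to 87.3% of the Jurkat bars.

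Under the same limit from library selection, the order of FPKM was HIST1H1C, H1FX and H1F0 in both Molt-4 groups. It was H1FX, H1F0 and HIST1H1C in both Jurkat groups, with no overlap between neighbours in any group. The minor genes were less clearly ordered. In untreated Molt-4, HIST1H1D at 2.90 ± 0.443 FPKM and HIST1H1E at 2.70 ± 1.22 FPKM overlapped. In treated Molt-4, HIST1H1E at 4.68 ± 0.654 FPKM lay above HIST1H1D at 2.76 ± 0.681 FPKM in each library. In treated Jurkat both averaged close to 0.59 FPKM, and in untreated Jurkat HIST1H1B, HIST1H1D and HIST1H1E all overlapped. Among genes above 0, HIST1H1C stood higher than 99.2% of genes in treated and 97.7% in untreated Molt-4, and higher than 62.9% in treated and 37.4% in untreated Jurkat.

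**Figure D2:**
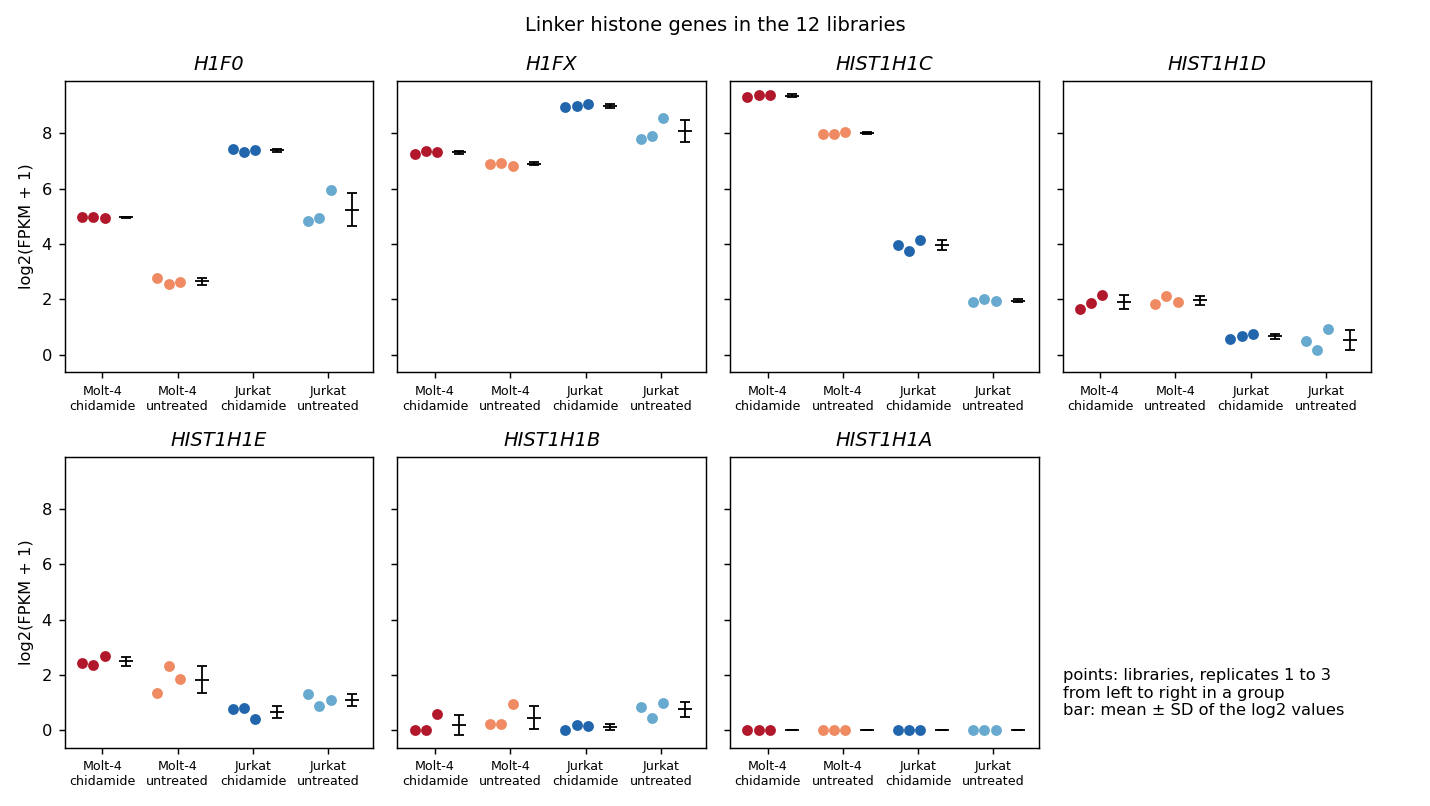
Level of each linker histone gene on the log2(FPKM + 1) scale (y axis) in the 12 libraries, grouped on the x axis by line and treatment, with points for libraries and a bar for the mean ± SD of 3. H1F0 and HIST1H1C lie higher with chidamide in both lines, HIST1H1C lies far higher in Molt-4, and HIST1H1A is listed at 0 throughout.

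Each gene was tested for 3 questions, namely whether chidamide changed it in each line, whether the responses differed, and whether the lines differed. A limma model on log2(FPKM + 1) was fitted to the 13840 genes with at least 1 FPKM in at least 3 libraries, and genes with a Benjamini-Hochberg adjusted p under 0.05 over all of them are called. Log2 changes are given ± SE, and for genes of low FPKM they are smaller than the true change. HIST1H1C, HIST1H1D, HIST1H1E, H1F0 and H1FX passed this filter, 5 of the 7. In Molt-4, 4 linker histone genes were called higher with chidamide, where 35.4% of all genes tested were called higher, and none was called lower, where 24.6% were. In Jurkat, 3 were called higher, against 30.9% of all genes, and none lower, against 25.4%. No tested member was lower at an unadjusted p under 0.05 in either line. With so many genes called, a call alone sets no member apart.

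H1F0, the replication-independent H1 of non-dividing cells, rose with chidamide in both lines. It was at 30.73, 30.09 and 29.81 FPKM in treated Molt-4 libraries, against 5.88, 4.80 and 5.19 FPKM in untreated ones. In Jurkat it was at 170.39, 159.51 and 165.74 FPKM with chidamide, against 27.49, 29.92 and 60.12 FPKM without. Neither pair of groups overlapped, and the high untreated value was that of replicate 3, the library that stood apart. The log2 change was 2.31 ± 0.213 in Molt-4 (adjusted p = 1.78e-06, limma), a 5.71-fold ratio of mean FPKM. It was 2.14 ± 0.213 in Jurkat (adjusted p = 4.15e-06, limma), a 4.22-fold ratio, and 2.49 without untreated replicate 3. These were the 279th and 162nd highest changes of 13840 genes in Molt-4 and Jurkat. The difference of the responses was 0.18 ± 0.301 (adjusted p = 0.697, limma) and turned to -0.17 without untreated Jurkat replicate 3 and to -0.11 with quantile normalization, so no difference was detectable.

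H1FX, which encodes the diverged histone H1.X, had the highest FPKM among the linker histone genes in Jurkat. It was at 491.39, 499.47 and 537.22 FPKM in treated Jurkat, against 223.02, 235.16 and 373.98 FPKM in untreated Jurkat. In Molt-4 it was at 152.43, 162.90 and 157.03 FPKM with chidamide, against 118.61, 121.21 and 112.65 FPKM without. The groups did not overlap in either line. The log2 change was 0.91 ± 0.146 in Jurkat (adjusted p = 0.000196, limma) and 1.15 without untreated replicate 3. It was 0.42 ± 0.146 in Molt-4 (adjusted p = 0.0256, limma). The Molt-4 call was lost, with adjusted p of 0.0533 to 0.071, when treated replicate 2 or 3 or untreated replicate 1 or 3 was left out. All 4 groups share 1 estimate of the spread, untreated Jurkat replicate 3 included. Without that library the adjusted p in Molt-4 was 1.25e-05, and in a fit of the Molt-4 groups alone it was 0.000168 (limma). The response in Molt-4 minus that in Jurkat was -0.49 ± 0.206 (adjusted p = 0.089, limma), and without untreated Jurkat replicate 3 it was -0.73 (adjusted p = 1.88e-05, limma), so that library decides this call. In RefSeq the gene shares 16 bases with its antisense gene H1-10-AS1, and without strand their reads cannot be told apart.

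HIST1H1C rose with chidamide in both lines from levels far apart. In Molt-4 it was at 628.01, 670.45 and 663.93 FPKM with chidamide, against 248.76, 252.40 and 261.82 FPKM without. The Jurkat levels were 14.74, 12.52 and 16.68 FPKM with chidamide, against 2.77, 3.0 and 2.86 FPKM without. The treated libraries lay above the untreated ones in each line, and every untreated Molt-4 library lay above every treated Jurkat library. The log2 change was 1.36 ± 0.081 in Molt-4 (adjusted p = 3.99e-08, limma), a 2.57-fold ratio, and 2.00 ± 0.081 in Jurkat (adjusted p = 2.43e-09, limma), a 5.09-fold ratio. The responses differed by -0.65 ± 0.115, Molt-4 minus Jurkat (adjusted p = 0.00112, limma). Under every alternative run, this difference stayed negative and called, from -0.94 to -0.35. In the difference, 1 linker histone gene was called higher, against 19.8% of all genes, and 1 lower, against 12.1%.

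HIST1H1E (histone H1.4, another common somatic H1) was the member called higher in that difference. It was at 4.42, 4.19 and 5.42 FPKM in treated Molt-4, against 1.54, 3.97 and 2.60 FPKM in untreated Molt-4. Jurkat libraries held 0.70, 0.75 and 0.34 FPKM with chidamide, against 1.47, 0.84 and 1.16 FPKM without. The treated libraries were thus higher in Molt-4 and lower in Jurkat, with no overlap in either line. The log2 change was 0.66 ± 0.213 in Molt-4 (adjusted p = 0.0173, limma) and -0.43 ± 0.213 in Jurkat (adjusted p = 0.103, limma), and the responses differed by 1.10 ± 0.301 (adjusted p = 0.0153, limma). The Molt-4 call was lost with quantile normalization (0.18, adjusted p = 0.468), without treated replicate 3 (adjusted p = 0.0659) and without untreated replicate 1 (0.42, adjusted p = 0.0743, limma). In Jurkat the values lie near or below 1 FPKM, where the fit called a fall under 4 alternatives, with log2 changes between -0.88 and -0.43.

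HIST1H1D (histone H1.3) did not pass the test in either line. It was at 2.16, 2.62 and 3.50 FPKM in treated Molt-4, against 2.55, 3.40 and 2.76 FPKM in untreated Molt-4. Jurkat libraries held 0.48, 0.60 and 0.69 FPKM with chidamide, against 0.41, 0.13 and 0.90 FPKM without. Treated and untreated values overlapped in both lines. The log2 change was -0.063 ± 0.182 in Molt-4 (adjusted p = 0.785, limma) and 0.13 ± 0.182 in Jurkat (adjusted p = 0.562, limma). With quantile normalization the Molt-4 value was -0.71 and called (adjusted p = 0.00374, limma), and that scaling put the median of all genes in Molt-4 at -0.097, against 0.0756 as deposited.

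HIST1H1B (histone H1.5) and HIST1H1A (H1.1) were below the filter. HIST1H1B was at 0, 0 and 0.52 FPKM in treated Molt-4, against 0.16, 0.17 and 0.93 FPKM in untreated Molt-4. In Jurkat it was at 0, 0.15 and 0.13 FPKM with chidamide, against 0.79, 0.37 and 0.99 FPKM without, and there the groups did not overlap. In a fit with no filter its log2 change was -0.64 ± 0.23 in Jurkat (adjusted p = 0.0435, limma) and -0.26 ± 0.226 in Molt-4 (adjusted p = 0.387, limma). HIST1H1A, known from thymus and testis, was listed at 0 in all 12 libraries. Of the germline H1 genes with a row, HIST1H1T, H1FNT and H1FOO, none passed the filter. HIST1H1T was at 0.12 to 0.6 FPKM in Molt-4 and at 0 in Jurkat.

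Before treatment the lines differed at each of the 5 genes tested. HIST1H1C was higher in untreated Molt-4 by 6.04 ± 0.081 on the log2 scale (adjusted p = 3.59e-14, limma), an 88.4-fold ratio of mean FPKM and the 17th highest of 13840 differences. HIST1H1D was higher by 1.43 ± 0.182 (adjusted p = 2.1e-05, limma) and HIST1H1E by 0.74 ± 0.213 (adjusted p = 0.00893, limma). H1F0 was lower in untreated Molt-4, at -2.59 ± 0.213 (adjusted p = 4.15e-07, limma), and so was H1FX, at -1.19 ± 0.146 (adjusted p = 1.44e-05, limma). Of the 5 tested, 3 were called higher in Molt-4, where 27.9% of all genes were, and 2 lower, where 37.5% were. HIST1H1B, not tested, averaged 0.42 ± 0.442 FPKM in untreated Molt-4 and 0.717 ± 0.316 in untreated Jurkat, with overlap. The marker sums listed above also differed between the untreated lines. T-lineage and B-lineage sums were lower in untreated Molt-4, and erythroid, myeloid, and epithelial and stromal sums were higher.

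With chidamide the same directions held, with 3 genes higher in Molt-4 (31.7% of all genes) and 2 lower (37.5%). HIST1H1C differed by 5.40 ± 0.081 (adjusted p = 6.56e-14, limma), a 44.7-fold ratio, and HIST1H1E by 1.83 ± 0.213 (adjusted p = 8.58e-06, limma). HIST1H1D was at 1.23 ± 0.182, H1FX at -1.69 ± 0.146 and H1F0 at -2.41 ± 0.213 (adjusted p = 6.92e-05, 6e-07 and 7.42e-07, limma).

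**Figure D3:**
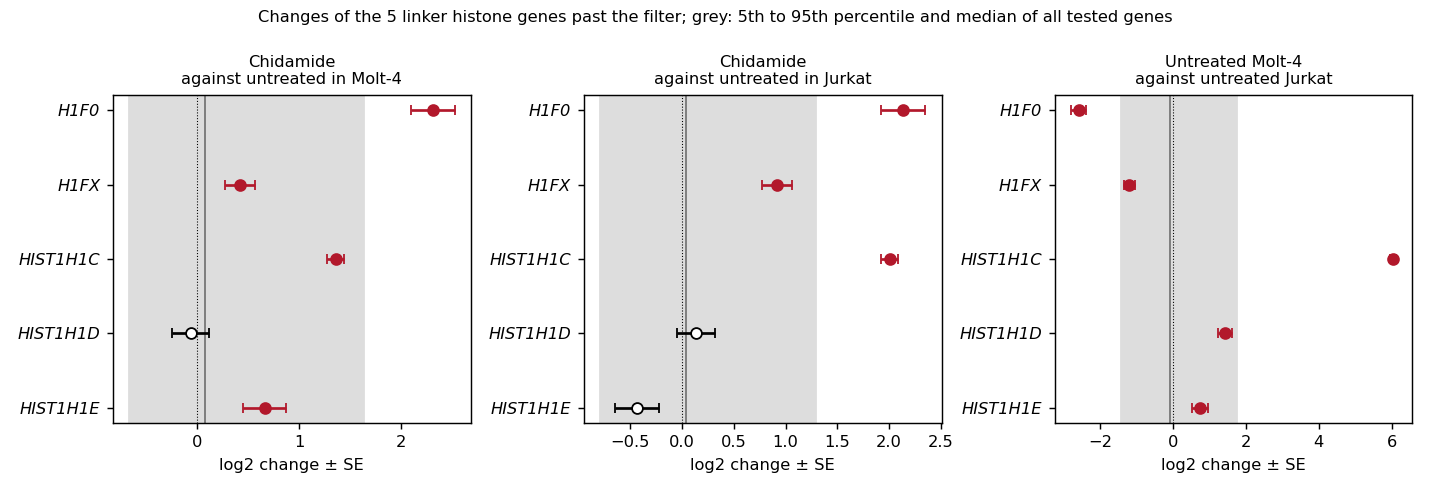
Log2 change ± SE (x axis) of the 5 linker histone genes past the filter (y axis) in 3 panels (chidamide in Molt-4, chidamide in Jurkat, and the lines compared untreated), with called genes filled. The grey band is the 5th to 95th percentile of all tested genes and the grey line their median. H1F0 lies beyond the band in all 3 panels, and HIST1H1C at 6.04 lies far beyond it between the lines.

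Promoters of these genes were read from RefSeq (GRCh38.p14, 250 bases before to 50 after the start), where 6 of the 7 have an entry. Those of HIST1H1C, HIST1H1D, HIST1H1E and H1FX are shown because the HIST1H1 genes share promoter elements yet differ widely in level in Molt-4. Capitals mark the searched motifs, on either strand: the H1 box AAACACA, an upstream element known from H1 genes, the CCAAT box, and the TATA forms TATAAA and TATATA, which may overlap. They lie at chr6:26056421-26056720 (minus strand) for HIST1H1C, chr6:26234938-26235237 (minus strand) for HIST1H1D, chr6:26156079-26156378 (plus strand) for HIST1H1E and chr3:129316237-129316536 (minus strand) for H1FX.
HIST1H1C: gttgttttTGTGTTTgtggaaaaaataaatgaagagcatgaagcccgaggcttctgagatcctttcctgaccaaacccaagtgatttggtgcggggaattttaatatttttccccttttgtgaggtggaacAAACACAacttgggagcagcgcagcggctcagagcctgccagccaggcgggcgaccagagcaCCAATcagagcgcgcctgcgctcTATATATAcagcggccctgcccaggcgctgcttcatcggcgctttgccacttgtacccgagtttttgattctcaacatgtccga
HIST1H1D: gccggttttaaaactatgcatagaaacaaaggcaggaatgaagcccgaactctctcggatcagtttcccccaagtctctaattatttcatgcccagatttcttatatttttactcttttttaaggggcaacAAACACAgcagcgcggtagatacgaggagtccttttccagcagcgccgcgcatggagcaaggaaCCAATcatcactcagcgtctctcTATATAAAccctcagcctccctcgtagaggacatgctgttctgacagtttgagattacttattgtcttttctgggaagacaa
HIST1H1E: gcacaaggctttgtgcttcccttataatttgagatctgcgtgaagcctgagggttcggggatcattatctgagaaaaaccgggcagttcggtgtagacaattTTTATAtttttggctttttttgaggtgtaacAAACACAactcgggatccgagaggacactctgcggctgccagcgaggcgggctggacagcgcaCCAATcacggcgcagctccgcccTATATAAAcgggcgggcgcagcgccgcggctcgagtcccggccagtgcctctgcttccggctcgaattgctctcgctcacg
H1FX: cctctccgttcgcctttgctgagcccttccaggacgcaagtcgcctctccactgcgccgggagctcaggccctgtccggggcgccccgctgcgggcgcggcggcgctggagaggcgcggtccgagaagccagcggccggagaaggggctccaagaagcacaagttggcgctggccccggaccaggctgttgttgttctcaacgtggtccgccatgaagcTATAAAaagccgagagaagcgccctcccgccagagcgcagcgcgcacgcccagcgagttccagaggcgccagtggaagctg

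All 5 HIST1H1 promoters held an H1 box, a CCAAT box and a TATA form, a combination found in 0.584% of 35116 RefSeq promoters of this length. Singly, the H1 box was found in 5.64%, CCAAT in 34.6%, TATAAA in 11.5% and TATATA in 3.99% of them. In HIST1H1C, HIST1H1D and HIST1H1E the H1 box began at -119, -119 and -117 and CCAAT at -57, -55 and -54 from the start, on the gene's strand. H1FX held TATAAA at -31 and neither other motif. HIST1H1C held TATATA without TATAAA and a further H1 box at -242 on the opposite strand, while HIST1H1D and HIST1H1E held both TATA forms. HIST1H1B, at 0.42 ± 0.442 FPKM in untreated Molt-4, likewise held TATATA without TATAAA. Its H1 boxes began at -226 and -117, both on the gene's strand. TATATA without TATAAA and a second H1 box were thus not particular to HIST1H1C, whereas a second box on the opposite strand was. HIST1H1A, listed at 0, held TATAAA without TATATA and a single H1 box at -183 on the opposite strand.

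Among GENCODE release 29 transcripts, no pair of the 7 genes shared an identical window of 50 bases, and the longest identical run was 37 bases, between HIST1H1B and HIST1H1E. The read length is not given in the sources used here, so how far shorter reads could be assigned to the wrong member was not tested.

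Core histone genes were set beside the linker histones. Of 65 replication-dependent core histone genes 51 were tested, and in Molt-4 with chidamide 26 were called higher and 1 lower, with a median log2 change of 0.69 against 0.076 for all genes tested (24 and 5 with quantile normalization). Of all genes tested, 35.4% were called higher and 24.6% lower in Molt-4. HIST1H2AI was at 108 ± 5.59 FPKM with chidamide and 16.6 ± 0.917 without (2.63 ± 0.112, adjusted p = 2.13e-09, limma). HIST1H2BG was at 27.98 ± 0.969 FPKM with chidamide and 5.55 ± 0.735 without (2.15 ± 0.097, adjusted p = 3.5e-09, limma). In Jurkat 8 of the 51 were higher and 7 lower, where 30.9% of all genes were called higher and 25.4% lower. Their median was 0.089 against 0.037 for all genes. Quantile normalization gave 3 higher and 18 lower in Jurkat, so their balance there depends on the scaling. There HIST1H2AC was at 4.53 ± 0.584 FPKM with chidamide and 1.07 ± 0.386 without (1.43 ± 0.119, adjusted p = 9.12e-07, limma), while HIST1H2AB fell by 1.19 ± 0.242 (adjusted p = 0.00122, limma) at levels under 3 FPKM. Tested as a difference, the responses of 20 core histone genes were higher in Molt-4 and 2 lower, with 20 to 22 higher under the other scalings. Of all genes, 19.8% were called higher and 12.1% lower in that difference. Many core histone genes are near-identical copies, so single values are uncertain.

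Untreated Molt-4 exceeded untreated Jurkat at 33 of the 51, with 1 lower, and a median of 1.33 against -0.075 for all genes. Of all genes, 27.9% were called higher and 37.5% lower in untreated Molt-4. HIST1H2BK was at 437 ± 42.5 FPKM in untreated Molt-4 and 3.50 ± 1.06 in untreated Jurkat (6.63 ± 0.391, adjusted p = 1.81e-08, limma). HIST1H2BJ was at 82.3 ± 6.04 FPKM in untreated Molt-4 and 1.53 ± 0.730 in untreated Jurkat (5.08 ± 0.184, adjusted p = 1.87e-10, limma). In treated cells 38 were higher in Molt-4 and 13 not called, with a median of 2.24, where 31.7% of all genes were called higher and 37.5% lower.

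Of 6 tested genes listed here as replication-independent core histone variants, 3 were higher and 1 lower with chidamide in each line. Their medians were 0.15 in Molt-4 and 0.27 in Jurkat, against 0.076 and 0.037 for all genes. Over all genes 35.4% were called higher and 24.6% lower in Molt-4, and 30.9% higher and 25.4% lower in Jurkat, and the lists that follow are to be read against the same shares and medians. H2AFX, the variant phosphorylated at DNA breaks, was at 264 ± 7.70 FPKM in treated and 190 ± 5.30 in untreated Molt-4 (0.47 ± 0.047, adjusted p = 3.49e-06, limma). In Jurkat it was at 328 ± 5.18 FPKM with chidamide and 127 ± 6.30 without (1.36 ± 0.047, adjusted p = 6.02e-10, limma). H3F3A, which encodes histone H3.3, rose by 0.44 ± 0.039 in Molt-4 (adjusted p = 1.18e-06) and by 0.61 ± 0.039 in Jurkat (adjusted p = 9.65e-08, limma).

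S phase genes mostly fell. Of 34, 26 were called lower and 2 higher in Molt-4 (median -0.45), and 25 lower and 1 higher in Jurkat (median -0.33). CDC25A, a phosphatase that drives entry into S phase, was at 25.4 ± 0.862 FPKM in treated and 43.7 ± 3.003 in untreated Molt-4 (-0.76 ± 0.061, adjusted p = 5.53e-07, limma). In Jurkat it was at 25.4 ± 0.483 FPKM with chidamide and 49.8 ± 2.06 without (-0.94 ± 0.061, adjusted p = 1.15e-07, limma). TYMS, which makes thymidylate, fell by 0.70 ± 0.037 in Molt-4 (adjusted p = 1.51e-08, limma), and CHAF1B, a subunit of the chromatin assembly factor CAF-1, fell by 0.86 ± 0.082 in Jurkat (adjusted p = 2.9e-06, limma). CDKN1A, the cell cycle inhibitor p21, was at 19.9 ± 2.20 FPKM in treated and 0.637 ± 0.050 in untreated Molt-4 (3.67 ± 0.110, adjusted p = 1.56e-10, limma). Jurkat cells had 50.8 ± 1.08 FPKM with chidamide and 1.29 ± 0.327 without (4.51 ± 0.110, adjusted p = 4.07e-11, limma).

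Genes that make and process histone mRNA included more called lower than higher. Of 23 tested, 13 were lower and 2 higher in Molt-4 (median -0.22, against 0.076 for all genes), and 9 lower and 2 higher in Jurkat (median -0.13, against 0.037), where 24.6% and 25.4% of all genes were called lower in Molt-4 and Jurkat. LSM10, a subunit of the U7 particle that cuts histone pre-mRNA, fell by 0.71 ± 0.064 in Molt-4 (adjusted p = 1.61e-06) and by 0.70 ± 0.064 in Jurkat (adjusted p = 2.16e-06, limma). CPSF2, of the cleavage complex, fell by 0.67 ± 0.086 in Molt-4 (adjusted p = 3.07e-05, limma), and POU2F1, which encodes the factor OCT1, rose by 0.72 ± 0.107 in Jurkat (adjusted p = 0.000115, limma). SLBP, the stem-loop binding protein, fell by 0.25 ± 0.066 in Molt-4 (adjusted p = 0.00631) and by 0.37 ± 0.066 in Jurkat (adjusted p = 0.000493, limma). NPAT, the coactivator of histone loci, was at -0.024 ± 0.088 in Molt-4 (adjusted p = 0.835) and 0.078 ± 0.088 in Jurkat (adjusted p = 0.483, limma), neither called.

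Chaperones of H1 and proteins that compete with it for nucleosomes also included more called lower than higher. Of 17 tested, 12 were lower and 1 higher in Molt-4 (median -0.28), and 8 lower and 3 higher in Jurkat (median -0.15), where quantile normalization gave 7 lower and 6 higher, and 11 lower and 3 higher in Molt-4. HMGN2, a nucleosome-binding protein, was at 369 ± 4.91 FPKM in treated and 620 ± 13.3 in untreated Molt-4 (-0.75 ± 0.045, adjusted p = 4.15e-08, limma). Its relative HMGN5 fell by 0.61 ± 0.119 in Molt-4 (adjusted p = 0.000792, limma). In Jurkat the histone chaperone ANP32B was at 130 ± 4.24 FPKM with chidamide and 311 ± 14.98 without (-1.25 ± 0.046, adjusted p = 1.07e-09, limma). HMGA1, which binds AT-rich DNA, was at 162 ± 6.80 FPKM with chidamide and 332 ± 11.9 without (-1.04 ± 0.043, adjusted p = 3.05e-09, limma).

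**Figure D4:**
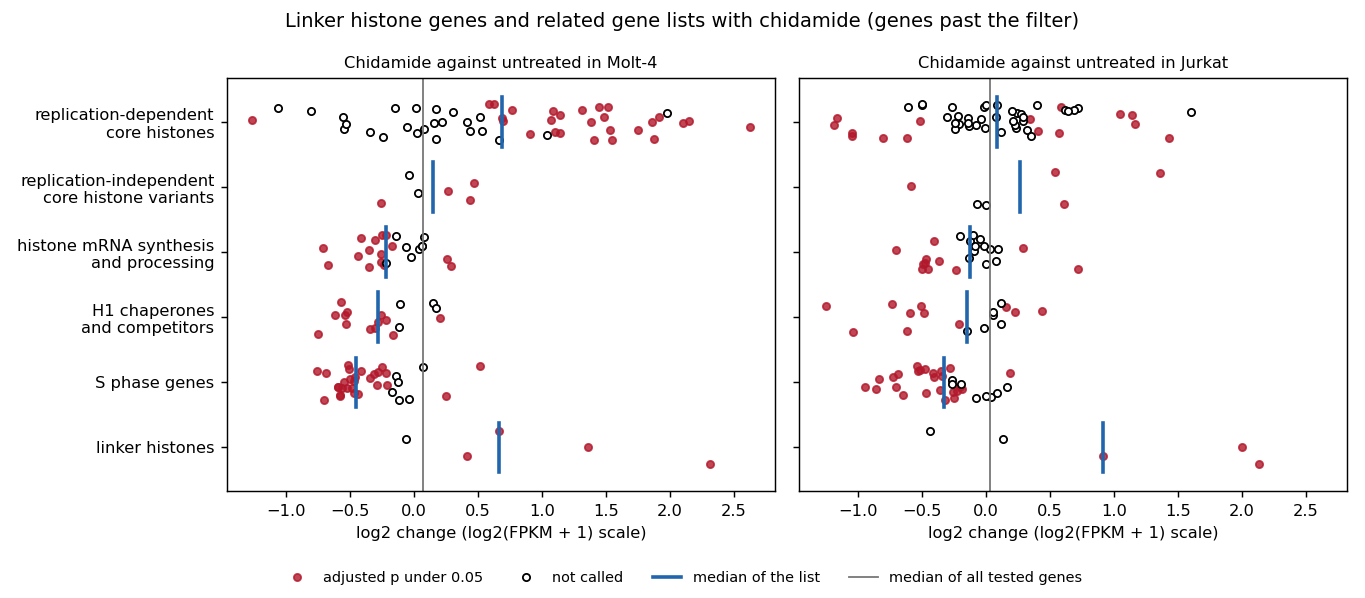
Log2 change with chidamide (x axis) of each tested gene of 6 groups (y axis) in Molt-4 and Jurkat, with called genes filled, a blue bar at the median of each list and a grey line at the median of all tested genes. S phase genes lie mostly left of that line in both panels, and core histone genes spread to the right in Molt-4, with a median of 0.69.

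The genes next to each member in RefSeq gave a local comparison. Of 14 neighbours, as matched by symbol or synonym, 8 passed the filter, and HIST1H3C and HFE, on either side of HIST1H1C, did not. HIST1H3C was listed at 0 in all libraries, and HFE was at 1.23 ± 0.361 FPKM in treated and 0.41 ± 0.217 in untreated Molt-4. Beside H1F0, TRIOBP was at 0.24 ± 0.083 in Molt-4 (adjusted p = 0.0252) and 0.053 ± 0.083 in Jurkat (adjusted p = 0.621, limma), and GCAT was at -0.13 ± 0.149 in Molt-4 (adjusted p = 0.476) and -0.77 ± 0.149 in Jurkat (adjusted p = 0.00079, limma). The TRIOBP call in Molt-4 was lost under 5 alternatives. Beside H1FX, HMCES fell by 0.19 ± 0.074 in Jurkat (adjusted p = 0.0435, limma), a call lost under 13 alternatives, and HMCES in Molt-4 and RPL32P3 in both lines were not called. TRIM38, beside HIST1H1A, rose by 0.52 ± 0.096 in Molt-4 (adjusted p = 0.000569) and by 0.56 ± 0.096 in Jurkat (adjusted p = 0.000332, limma), the Molt-4 call being lost with quantile normalization (0.023). HIST1H3I, beside HIST1H1B, fell by 1.26 ± 0.225 in Molt-4 (adjusted p = 0.000416, limma). In Jurkat it fell by 0.61 ± 0.225 (adjusted p = 0.0351, limma), a call that 7 alternatives lost. Its levels were low, at 0.243 ± 0.211 FPKM in treated and 1.99 ± 0.576 in untreated Molt-4. Jurkat libraries averaged 0.373 ± 0.403 FPKM with chidamide and 1.06 ± 0.348 without, with overlap. HIST1H2AC lies before HIST1H1E, and the RefSeq gene after HIST1H1E, H2BC5, was matched to the symbol HIST1H2BC through a synonym. That match was not verified, so HIST1H2BC may not be the gene after HIST1H1E, and its values may not be a local comparison. HIST1H2AC and HIST1H2BC were higher in untreated Molt-4 than in untreated Jurkat by 4.23 ± 0.119 and 3.75 ± 0.214 (adjusted p = 1.73e-11 and 1.33e-08, limma). With chidamide in Molt-4 they were at 0.18 ± 0.119 and 0.16 ± 0.214 (adjusted p = 0.222 and 0.551, limma), neither called. In Jurkat HIST1H2AC rose by 1.43 ± 0.119 (adjusted p = 9.12e-07, limma), and HIST1H2BC was at -0.13 ± 0.214 (adjusted p = 0.636, limma). The response of HIST1H2AC in Molt-4 minus that in Jurkat was -1.25 ± 0.168 (adjusted p = 0.000148, limma), opposite in sign to that of HIST1H1E.

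The genes whose levels followed each member most closely were found by the root mean square difference of log2 values centred on each gene's mean, over the 12 libraries and 13839 other genes. For H1F0 these were HDAC9, SHANK1 and HLA-F, at 0.301, 0.348 and 0.362, beside an SD of H1F0 itself of 1.69. HDAC9, a class IIa deacetylase, averaged 2.67 FPKM in treated and 0.133 in untreated Molt-4, and 24.1 in treated and 5.83 in untreated Jurkat. For HIST1H1C they were TIMP1, LOC283352 and CTSH, at 0.248, 0.305 and 0.501, beside an SD of 2.99. TIMP1, an inhibitor of metalloproteinases, averaged 291 FPKM in treated and 81.1 in untreated Molt-4, and 6.30 in treated and 0.397 in untreated Jurkat. For H1FX, LGALS9C, KLHL29 and KRCC1 were nearest, at 0.149 to 0.158 beside an SD of 0.821. LGALS9C averaged 0.203 FPKM in treated and 0 in untreated Molt-4, and 3.18 in treated and 1.23 in untreated Jurkat. At such levels the log2(FPKM + 1) scale shrinks differences, so its FPKM need not follow that of H1FX in proportion. For HIST1H1D they were COX7A2L, SRBD1 and PTPRVP, and for HIST1H1E they were SEPT8, MIR4435-2HG and ABHD5, at 0.189 to 0.262.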

How the data were processed

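The members were taken from the deposited table by symbol, and they and the gene lists were chosen with earlier results of these data known. The deposited values are FPKM per gene, rounded to 2 decimals, made by the authors with tools that, per the submitters' processing notes, include STAR, HTSeq and DESeq2, with the build hg19. Versions, order of steps and strand setting are not given in the sources used here. Whole reads were not recovered: 30.0% of 657 low values lay within 0.15 of a whole multiple of 1 read, and a uniform spread gives 30%. Depth is therefore unknown and no counting interval is given.

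Libraries were grouped by title, with J and M read as Jurkat and Molt-4, the lines the growth protocol names. Genes with at least 1 FPKM in at least 3 of the 12 libraries (13840) were fitted as log2(FPKM + 1) with limma 3.58.1 in R 4.3.3 (lmFit, eBayes with trend, 1 mean per group, 8 residual degrees of freedom). P-values were two-sided and adjusted by Benjamini-Hochberg over all genes of each of 5 comparisons. The model was tested on simulated data. The text names all members, CDKN1A, SLBP and NPAT, and from each list up to 2 called genes with the largest absolute change in a comparison. Neighbours came from RefSeq and nearest profiles from the rule given beside them. Alternatives were a pseudocount of 0.1, no filter, a filter of 5 FPKM, 3 scalings, robust empirical Bayes, fits restricted to the compared groups, a replicate block and leaving out each library. H1F0 has no promoter shown.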

Additional observations from a re-analysis of the deposited data

Results flagged for a closer look

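The responses of HIST1H1C and HIST1H1E to chidamide differed between the lines when the difference itself was tested with limma. For HIST1H1C the response in Molt-4 minus that in Jurkat was -0.646 on the log2 scale, with all 3 treated libraries above all 3 untreated ones in each line. For HIST1H1E it was 1.097, with treated libraries above untreated ones in Molt-4 and below them in Jurkat. For HIST1H2AC, the core histone gene beside HIST1H1E, it was -1.252, with treated libraries above untreated ones in both lines. HIST1H1E was near or below 1 FPKM in Jurkat, and the erythroid markers, present in the libraries labelled Molt-4, also differed with chidamide, a relation whose part was not tested.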

How the results depend on the processing

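Of 515 recomputed values of single linker histone genes, 496 kept their direction and their side of the threshold, 7 lost the call, 6 gained it and 6 turned, all 6 in values that were not called. In Molt-4 the number of members called higher was 4, and 2 to 4 when a library was left out, with 2 without treated replicate 3 or untreated replicate 1. The number called lower was 1 with quantile normalization (HIST1H1D). In Jurkat the number called lower was 1 with a pseudocount of 0.1, with no filter, with quantile normalization, and without untreated Molt-4 replicate 1 or 2, and 0 to 1 when a library was left out. With a filter of 5 FPKM, HIST1H1D and HIST1H1E dropped out, which left 0 members higher in the difference of the responses and 1 higher in Molt-4 in each comparison of the lines. In the difference 1 to 2 members were lower when a library was left out, with 2 without untreated Jurkat replicate 3 (H1FX).

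Quantile normalization moved the share of H1F0 in untreated Molt-4 to 1.66%, of H1FX and HIST1H1C in treated Molt-4 to 19.1% and 76.5%, and of HIST1H1C in untreated Jurkat to 1.22%. The values that turned were not called. When a library was left out, HIST1H1D ran from -0.201 to 0.0543 in Molt-4 (0.026 without untreated replicate 2) and from -0.044 to 0.331 in Jurkat, and the difference for H1F0 from -0.171 to 0.38. With quantile normalization HIST1H1D in Jurkat was at -0.349 and the difference for H1F0 at -0.11. Among other genes, leaving out a library gave GCAT -0.282 to 0.00663 and NPAT -0.0607 to 0.0141 in Molt-4, and TRIOBP -0.0226 to 0.12 and HIST1H2BC -0.403 to 0.0366 (0.00246 without treated replicate 1) in Jurkat. Quantile normalization gave RPL32P3 -0.0316 in Molt-4 and NPAT -0.0644 in Jurkat. The cause of these moves was not tested.

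Libraries with the same replicate number did not visibly deviate together, with correlations from -0.0858 to 0.0408. With 3 libraries per group this cannot show whether they were handled in matched sets. With the replicate number as a block the members called were 4 in Molt-4 and 3 in Jurkat, the same counts, and all genes called were 8197 and 7680, against 8304 and 7786. The FPKM hold no depth, so values under 1 FPKM have an unknown counting error.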
